A study of Homo sapiens with 4 samples.

Results

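The genes described here are 9 keratins, *KRT7*, *KRT8*, *KRT10*, *KRT15*, *KRT18*, *KRT19*, *KRT80*, *KRT81* and *KRT86*. They were picked by symbol from a table of 30843 genes, and 8 of them had enough reads to be tested. The RNA came from A549, an established line of human lung adenocarcinoma cells, labelled wild type and grown as a 2D culture on plastic. The RM+ group (n = 2) was kept in a sealed chamber whose air pressure cycled between slightly negative and atmospheric pressure, a process called respiratory motion (RM). The RM- group (n = 2) was kept without RM. Both groups were harvested on day 4, and the labels put replicate 1 of each group in batch 1 and replicate 2 in batch 2. The question was whether this mechanical cue is accompanied by a difference in the keratin cytoskeleton of the tumour cells at the level of mRNA. A549 is a single cell line on rigid plastic, so the groups stand for this line only.

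Keratins are the intermediate filament proteins of epithelia. A filament is built from pairs of an acidic type I chain and a basic type II chain, so the chains of both types are made side by side, and the pair of keratin 8 and keratin 18 is the basic pair of simple epithelia such as those of the lung. Keratin filaments are anchored at desmosomes, carry mechanical load through an epithelial sheet, and are used by pathologists to type carcinomas.

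Of the 9 keratins, 5 were type II (*KRT7*, *KRT8*, *KRT80*, *KRT81*, *KRT86*) and 4 were type I (*KRT10*, *KRT15*, *KRT18*, *KRT19*). On the genome build GRCh38, 6 lay in the keratin cluster of chromosome 12, including the type I gene *KRT18*, and 3 lay in that of chromosome 17. *KRT8* (ENSG00000170421) occupied chr12:52897187-52949954 on the minus strand, and *KRT18* (ENSG00000111057) occupied chr12:52948871-52952906 on the plus strand, so that their annotated gene bodies shared 1084 bases, of which 525 were exonic in both. *KRT81* (ENSG00000205426, chr12:52285913-52291534, minus strand) lay wholly inside the annotated body of *KRT86* (ENSG00000170442, chr12:52249300-52309163, plus strand), with 0 shared exonic bases. *KRT7* (ENSG00000135480) was at chr12:52232520-52252186 on the plus strand and *KRT80* (ENSG00000167767) at chr12:52168996-52192014 on the minus strand. On chromosome 17, all on the minus strand, were *KRT10* (ENSG00000186395, chr17:40818117-40822614), *KRT15* (ENSG00000171346, chr17:41513745-41522529) and *KRT19* (ENSG00000171345, chr17:41523617-41528308).

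How far a read can be given to a single gene differed between the members. Of all 31-base words in the *KRT18* transcript, 74.1% also stood in transcripts of other genes, read on either strand, and the figure was 62.0% for *KRT8*. Most of those other genes were processed copies, 64 *KRT18* pseudogenes and 47 *KRT8* pseudogenes. For *KRT81* it was 53.2% and for *KRT86* 45.8%, and the main partner of each was the other. *KRT7* (14.3%, mostly its antisense gene *KRT7-AS*), *KRT19* (11.4%), *KRT15* (3.85%), *KRT10* (1.48%) and *KRT80* (1.49%) shared less. Values of *KRT8*, *KRT18*, *KRT81* and *KRT86* are therefore uncertain as far as reads were split between copies or left uncounted, and the sources used here do not give how shared reads were counted.

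The hair keratins *KRT81* and *KRT86* were the closest pair. Their coding sequences, of 1515 and 1458 bases, were identical at 94.5% of 1448 aligned positions.

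The unit throughout is the normalised read count, the reads of a gene divided by a size factor of the sample. Depth, counted over the 30843 genes, was 18754356 and 19009997 reads in the RM+ samples and 19228867 and 20412283 reads in the RM- samples. Replicates were not copies of each other: comparing the reads of a pair gene by gene, the mean chi-square was 11.5 for RM+ and 9.81 for RM-, well over the value near 1 of pure counting noise. The reporting summary of the study speaks of independent repeats of its main 2D experiments without saying that the sequenced replicates were separate cultures, and the p-values reflect just the variation among these 4 samples, possibly technical. Differences were tested with limma on log2(normalised count + 1) over the 17632 genes with at least 10 normalised counts in at least 2 samples. The test was two-sided with Benjamini-Hochberg adjustment, and each fold change sets RM+ over RM- on this log2 scale. Of all genes tested, 398 passed an adjusted p of 0.05 (2.26%), 258 higher (1.46%) and 140 lower (0.794%) in RM+ cells. With no filter on low counts limma passed 0 genes, with 2911 at an unadjusted p under 0.05, and edgeR passed 109.

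The label of an epithelial line was checked against marker genes. The airway and alveolar list had 9 of its 10 genes in the table, 5 of them tested and 0 past the test. *CDH1*, which encodes E-cadherin, had 2543 and 2368 normalised counts in RM+ cells, against 2568 and 2869 in RM- cells, and *ABCA3*, the lipid transporter of alveolar lamellar bodies, had 1578 and 1552 against 1416 and 1419.6. The rest of the list was low: *EPCAM* had 47.8 and 45.4 in RM+ cells, against 45.4 and 67.9 in RM- cells, *AGER* had 40.6 and 36.3 against 46.4 and 51.6, and *SFTPD* and *LAMP3* had at most 16.3 and 13.2 in any sample. *SFTPC* and *SFTPB*, surfactant proteins C and B, had at most 2.87 and 2.02, and *NKX2-1*, the lung lineage factor, at most 2.03. Of the markers of other cell types, the endothelial list summed to 28.5 and 14.1 normalised counts in RM+ cells, against 7.06 and 9.56 in RM- cells, with all 6 genes under 10. The immune list (217 and 250.4 against 215 and 196) came almost wholly from *CD14* and the fibroblast list (164 and 145 against 154 and 143) from *COL1A1*, while *PTPRC* and *DCN* were at most 2.87 and 0.956. The basal and squamous list had only 2 of its 10 genes in the table, 1 of them tested, and these summed to 16.3 and 17.2 against 22.2 and 22.0. None of the tested genes of these lists passed.

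Shares were taken of the reads counted over all 30843 genes. Together, the 9 keratins took 0.710% and 0.714% of them in the RM+ samples, against 0.724% and 0.651% in the RM- samples. The 95% exact binomial intervals, which cover counting error only, ran from 0.706% to 0.714% and from 0.710% to 0.717% in RM+, and from 0.720% to 0.727% and from 0.648% to 0.655% in RM-. The RM- samples thus lay on both sides of the RM+ samples, and the total keratin share did not separate the groups. *KRT8* and *KRT18* supplied 69.4% and 67.9% of the keratin reads in RM+ cells, against 68.0% and 67.8% in RM- cells.

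**Figure D1:**
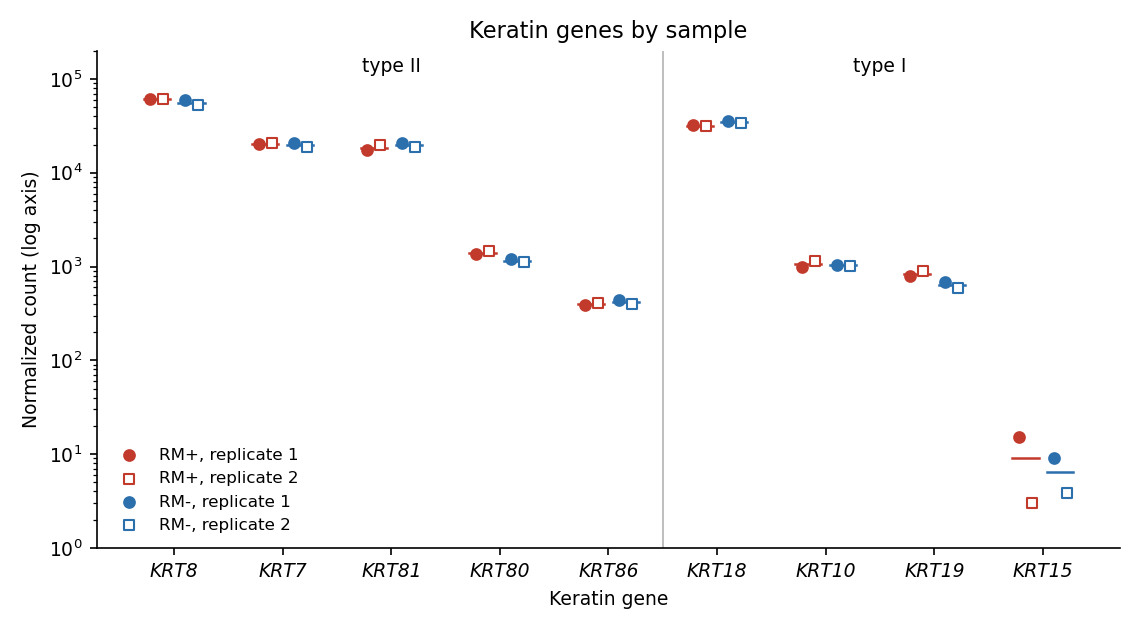
Normalised counts of the 9 keratin genes (log axis) in each sample, type II genes left of the line and type I genes right of it, RM+ (red) left of RM- (blue), with replicate 1 as filled circles, replicate 2 as open squares and group means as bars. *KRT8*, *KRT18*, *KRT7* and *KRT81* lay at 17547 or more in every sample, *KRT80*, *KRT10*, *KRT19* and *KRT86* between 392 and 1455, and *KRT15* at 15.2 or less.

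To compare levels between genes, the mean normalised count over the 4 samples was divided by gene length. Per kilobase of all annotated exons, *KRT18* (10358), *KRT81* (9925) and *KRT8* (8542) came out close together, followed by *KRT7* (4932), then *KRT10* (492), *KRT19* (316), *KRT80* (295), *KRT86* (171) and *KRT15* (1.10). In the upper trio the sample ranges of neighbours overlapped, from 9743 to 11184 for *KRT18*, from 9096 to 10681 for *KRT81* and from 7639 to 8956 for *KRT8*, except that *KRT8* stayed below the other two. Its place turned on the length used, since the exons of all *KRT8* transcripts together span 6.881 kb and the transcript with the longest coding sequence only 1.687 kb. Per kilobase of such a single transcript, a length chosen after the values were seen, the order was *KRT8* (34842), *KRT18* (23474), *KRT7* (11508) and *KRT81* (9925), and *KRT19* (531) stood above *KRT10* (497) and *KRT80* (332). By either length the same 4 genes led, and *KRT15* was last.

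Between the groups, 0 of the 8 tested keratins passed an adjusted p of 0.05 in limma, and 0 did in edgeR (background 1.99%) or DESeq2 (background 2.78%). At an unadjusted p under 0.05 there were 2, *KRT19* and *KRT80* (background 14.5%), and 0 reached the threshold of the study for differentially expressed genes, an unadjusted p under 0.05 with a log2 fold change beyond 1 (background 1.15%). The RM+ and RM- values did not overlap in 4 of the 8 (background 44.4%), with 3 higher in RM+ cells (background 22.2%) and 1 lower (background 22.2%). The median log2 fold change of the 8 was 0.04, with 5 above 0, against -0.00 over all genes tested, of which 49.3% were above 0. None of these 8 differed by more than 0.41 on the log2 scale. Since the labels tie the replicates to shared batches, the fit was repeated with the replicate number as a block, and 2 of the 8 then passed, *KRT19* and *KRT80* (background 9.74%). P-values of that fit rest on a spread pooled over genes, not on how far a gene's own batch differences vary.

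*KRT19* encodes keratin 19, a small type I chain without the usual tail, whose fragments in serum serve as a tumour marker of non-small cell lung cancer. It had 792 and 889.5 normalised counts in RM+ cells, against 680.0 and 589.8 in RM- cells. Both RM+ samples were above both RM- samples, and the means were 841 ± 69.3 and 635 ± 63.7 (SD, n = 2 each). The log2 fold change was 0.41 (SE 0.11, 95% interval 0.18 to 0.63), a 1.32-fold difference, with an adjusted p of 0.0574, just outside the threshold, and an unadjusted p of 0.0014, both from limma. With the replicate block its adjusted p was 0.000206 in limma, which leaves out the spread of its own batch differences. The difference was higher in both batches but unequal, at 0.22 in batch 1 and 0.59 in batch 2. Samples left out in turn moved the limma call: without replicate 1 of RM+ the adjusted p was 0.0157 and without replicate 1 of RM- 0.00578, while without replicate 2 of RM+ it was 0.271 and without replicate 2 of RM- 0.266. Keeping only genes with at least 10 normalised counts in every sample gave 0.0488.

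*KRT80* encodes a type II chain found in many epithelia near cell margins and desmosomes. Its values were 1363 and 1455 normalised counts in RM+ cells, against 1194 and 1116 in RM- cells, means of 1409 ± 65.3 and 1155 ± 55.8 (SD, n = 2 each). Again both RM+ samples were above both RM- samples. The log2 fold change was 0.29 (SE 0.09, 95% interval 0.10 to 0.48), a 1.22-fold difference, with an adjusted p of 0.126 and an unadjusted p of 0.0055, both from limma, and an adjusted p of 0.0044 with the replicate block. Within batches it was 0.19 in batch 1 and 0.38 in batch 2. An overlapping antisense gene, *LINC00592*, held at most 11.5 normalised counts in any sample.

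*KRT8* and *KRT18*, the partner chains of simple epithelia, differed in opposite directions without passing the test. *KRT8* had 61506 and 61629 normalised counts in RM+ cells, against 59416 and 52561 in RM- cells, and ranked 19th in mean count among all genes tested. Both RM+ samples were higher, but the RM- replicates differed from each other by more than the groups did. Its log2 fold change was 0.14 (95% interval -0.11 to 0.39, adjusted p = 0.663, limma), at 0.05 in batch 1 and 0.23 in batch 2. *KRT18* had 32368 and 31352 normalised counts in RM+ cells, against 35990.1 and 33619.8 in RM- cells. Both RM+ samples were lower, with a log2 fold change of -0.13 (95% interval -0.35 to 0.09, adjusted p = 0.648, limma), at -0.15 in batch 1 and -0.10 in batch 2.

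Since *KRT8* was higher and *KRT18* lower in both RM+ samples, their ratio had to separate the groups and is no further evidence of a difference. There were 1.90 and 1.97 *KRT8* reads per *KRT18* read in RM+ cells, against 1.65 and 1.56 in RM- cells. No scaling of the libraries enters this ratio. Its log2 difference was 0.27 (0.20 in batch 1 and 0.33 in batch 2). The SD of log2 ratios, from 2 replicates each, was 0.03 in RM+ and 0.06 in RM-. Ratios between single genes had not been planned, and how many other gene pairs separate in this way was not counted. An exact two-sided permutation of 2 against 2 samples gave p = 0.333, the smallest it can give for any difference in a design of this size. In all, 9 shares and ratios were computed, of which 7 were put to this test. Both genes share many 31-base words with pseudogenes. Counted on either strand, they also share words with each other, their gene bodies overlapping on opposite strands. The part of such reads in the ratio was not tested. The pseudogenes themselves were low. In the table stood 24 *KRT8* pseudogenes, of which 5 were tested, and 29 *KRT18* pseudogenes, of which 0 were tested. The *KRT8* pseudogenes summed to 275 and 236 normalised counts in RM+ cells, against 296 and 263 in RM- cells, the highest being *KRT8P12* and *KRT8P3*, and the *KRT18* pseudogenes to 29.5 and 24.2, against 27.2 and 43.0. None of the 5 passed.

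Summed by type, there were 2.96 and 3.10 type II reads per type I read in RM+ cells, against 2.72 and 2.61 in RM- cells, a log2 difference of 0.19. The RM+ ratios were the higher ones. Without *KRT8* and *KRT18* the order of the groups turned round, to 21.9 and 20.5 in RM+ cells, against 24.9 and 24.3 in RM- cells, a log2 difference of -0.22. The direction of the summed ratio thus followed the *KRT8* and *KRT18* pair, and the ratio of the remaining keratins differed the other way. Those keratins did not move together. Of the type II genes, *KRT80* (log2 fold change 0.29) and *KRT7* (0.03) were above 0 and *KRT81* (-0.09) and *KRT86* (-0.07) below it. The type I side held *KRT10* (0.05), *KRT19* (0.41) and the untested *KRT15*, all with far fewer reads than *KRT7* or *KRT81*. Both differences had an exact two-sided permutation p of 0.333, the smallest possible. Relative to *KRT18*, *KRT7* stood at 0.627 and 0.655 in RM+ cells, against 0.583 and 0.563 in RM- cells. *KRT19* stood at 0.0245 and 0.0284, against 0.0189 and 0.0175. For both ratios the groups did not overlap, but *KRT18* itself was lower in both RM+ samples. By its own counts *KRT19* separated the groups and *KRT7* did not. The share of all gene pairs whose ratios separate was not computed.

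**Figure D2:**
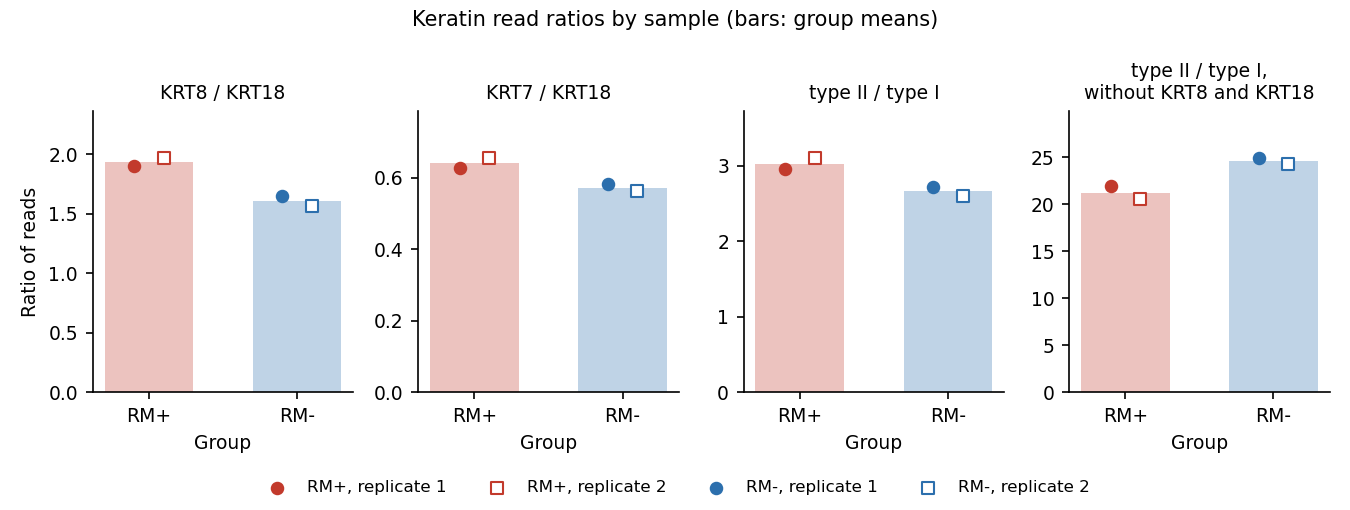
Ratios of reads between keratins in each sample, RM+ (red) left of RM- (blue), with bars at the group means, filled circles for replicate 1 and open squares for replicate 2; every axis starts at 0. *KRT8* per *KRT18* was 1.90 and 1.97 in RM+ and 1.65 and 1.56 in RM-, and the type II to type I ratio was higher in RM+ with all members (2.96 and 3.10 against 2.72 and 2.61) but lower without *KRT8* and *KRT18* (21.9 and 20.5 against 24.9 and 24.3).

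*KRT7*, a type II keratin of glandular and lung epithelium used to tell lung from gut carcinomas, overlapped between the groups. It had 20288 and 20536 normalised counts in RM+ cells, against 20986 and 18931 in RM- cells, with a log2 fold change of 0.03 (95% interval -0.17 to 0.24, adjusted p = 0.929, limma). The RM+ values lay between those of the RM- replicates, and the sign differed between batches, -0.05 in batch 1 and 0.12 in batch 2. Its antisense neighbour *KRT7-AS*, which shares 282 exonic bases with it, likewise overlapped, at 5424 and 5484 in RM+ cells, against 5505 and 5368 in RM- cells. The library kit marks the strand, but the sources used here do not give the strand setting of the counting, so reads of the pair may not be fully separated. A second overlapping gene, the pseudogene *KRT87P*, shares 32 exonic bases with *KRT7* and had 349.5 and 474 normalised counts in RM+ cells, against 502 and 215 in RM- cells, which spread more widely between the RM- replicates than between the groups.

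The hair keratins *KRT81* and *KRT86*, type II chains best known from the hair shaft, overlapped too. *KRT81* had 17547 and 19559 normalised counts in RM+ cells, against 20603 and 18872 in RM- cells (log2 fold change -0.09, 95% interval -0.30 to 0.12, adjusted p = 0.754, limma). *KRT86* had 392 and 408 normalised counts in RM+ cells, against 441 and 399 in RM- cells (log2 fold change -0.07, 95% interval -0.31 to 0.18, adjusted p = 0.857, limma). In batch 1 their log2 differences were -0.23 (*KRT81*) and -0.17 (*KRT86*), and in batch 2 they were 0.05 and 0.03. The number of *KRT81* reads per *KRT86* read stayed between 44.7 and 47.9 in all 4 samples. Of the other genes that overlap *KRT86*, ENSG00000287051 had 77.2 and 76.7 normalised counts in RM+ cells, against 58.5 and 72.7 in RM- cells, and *KRT88P*, ENSG00000257829, ENSG00000257830 and ENSG00000285102 had at most 7.06 in any sample. The coding sequences of the pair are much alike. Whether the *KRT86* reads were *KRT86* transcripts or misassigned reads of *KRT81* or *KRT87P* was not tested.

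*KRT10* and *KRT15* are type I chains of stratified epithelia, *KRT10* of the upper epidermal layers and *KRT15* of basal keratinocytes. *KRT10* had 999 and 1152 normalised counts in RM+ cells, against 1046 and 1022 in RM- cells, a log2 fold change of 0.05 (95% interval -0.15 to 0.26, adjusted p = 0.871, limma). The groups overlapped and the batches differed in sign, -0.07 in batch 1 and 0.17 in batch 2. Its antisense gene *KRT10-AS1* had 309 and 329 in RM+ cells, against 337 and 340.3 in RM- cells. *KRT15* had 15 and 3 reads in RM+ cells, against 9 and 4 reads in RM- cells, and did not reach the filter. Tested without a filter its log2 fold change was 0.21 with a 95% interval of -1.92 to 2.35, so no difference in *KRT15* was detectable at this depth.

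**Figure D3:**
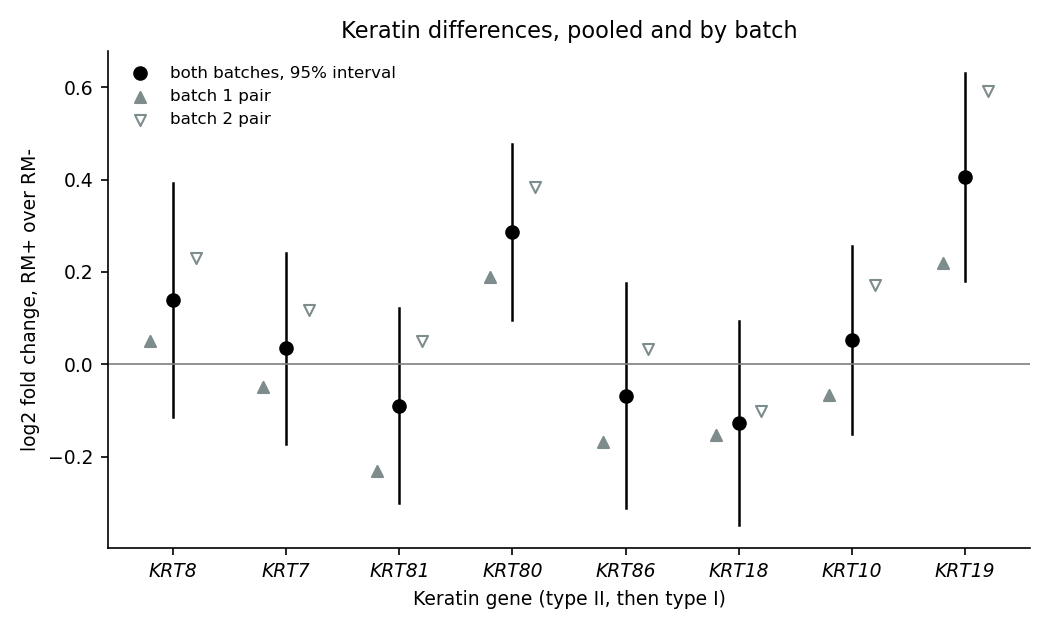
Log2 fold change of the 8 tested keratins, RM+ over RM-, with 95% intervals from limma (black) and the value within the batch 1 pair (filled triangles) and the batch 2 pair (open triangles). Only the intervals of *KRT19* (0.18 to 0.63) and *KRT80* (0.10 to 0.48) leave out 0, and in every gene the batch 2 value lies above the batch 1 value.

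Averaged over both groups, the keratins differed little between batches. Opposite shifts of the replicates cancel in this average. From batch 1 to batch 2, *KRT19* went from 792 to 889.5 in RM+ cells. In RM- cells it went from 680.0 to 589.8, and its batch difference was -0.02. In the fit with batch as a term, the log2 difference of batch 2 minus batch 1 ran from -0.09 (*KRT8*) to 0.09 (*KRT10*) over the 8 tested keratins, and 0 passed in limma (lowest adjusted p = 0.638, background 2.09%). The difference between RM+ and RM- was positive in both batches for 3 keratins (*KRT8*, *KRT19* and *KRT80*), negative in both for 1 (*KRT18*) and of opposite sign for 4 (*KRT7*, *KRT10*, *KRT81* and *KRT86*). The share of all genes with the same sign in both batches was not computed, so these counts are a description only. In all 8 the batch 2 value was the higher of the pair, as it was in 49.7% of all genes tested.

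Other keratin genes were scarce in these cells. Of 46 further functional keratins, 16 symbols stood in the table, 4 were tested and 0 passed in limma, with a median log2 fold change of 0.15. The most abundant was *KRT4*, a type II keratin of mucosal epithelia, with 104 and 93.9 normalised counts in RM+ cells, against 83.7 and 85.1 in RM- cells (adjusted p = 0.677, limma). Next was *KRT222* (ENSG00000264058), with 83.3 and 87.8 against 80.7 and 81.3 (adjusted p = 0.922, limma). A further entry with that symbol, ENSG00000213424, had 2.03 and 9.09 in RM+ cells, against 2.02 and 3.82 in RM- cells, and was not tested. The other tested genes were lower in level, *KRT20* with 25.4 and 21.2 in RM+ cells, against 11.1 and 20.1 in RM- cells (log2 fold change 0.60, adjusted p = 0.575, limma), and *KRT83* with 16.3 and 15.1 against 23.2 and 28.7 (-0.68, adjusted p = 0.451, limma). The groups did not overlap in any of the 4 tested genes (background 44.4%). The log2 differences of *KRT20* and *KRT83* were larger in size than those of the 8 keratins above, but rested on low counts. Their 95% intervals from limma, -0.29 to 1.49 for *KRT20* and -1.50 to 0.13 for *KRT83*, both included 0. The basal keratin *KRT5* was at most 1.01 in any sample.

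Among 12 tested genes of the other intermediate filaments, 2 rose in RM+ cells and 0 fell (background over all genes 1.46% higher and 0.794% lower), with a median log2 fold change of 0.18. *NEFL*, the neurofilament light chain, had 1029 and 1119.7 normalised counts in RM+ cells, against 716 and 733 in RM- cells (log2 fold change 0.57, adjusted p = 0.0039, limma). *SYNM*, which encodes synemin, a large intermediate filament protein that copolymerises with vimentin, had 2872.5 and 2899.8 against 2122 and 2124 (0.44, adjusted p = 0.0075, limma). Both RM+ samples were above both RM- samples in each gene. *VIM*, the mesenchymal filament gene, had 16058 and 16589 in RM+ cells, against 17127 and 16649 in RM- cells (adjusted p = 0.878, limma). With the replicate block, *INA* (0.35) and *LMNA* (0.29), which encode internexin and the nuclear lamins A and C, passed as well (background 9.74%). *LMNA* also passed in DESeq2 (adjusted p = 0.0256, background 2.78%) but not in edgeR (adjusted p = 0.118).

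Among 17 tested genes of plakins, desmosomes and keratin linkers, 1 rose (background 1.46%), 1 fell (background 0.794%) and 15 did not pass, with a median log2 fold change of 0.05. *FAM83H*, whose protein recruits casein kinase to keratin filaments, had 2610.4 and 2531 normalised counts in RM+ cells, against 2115 and 1770.4 in RM- cells (0.41, adjusted p = 0.0289, limma). *PPL*, which encodes periplakin, a linker of keratin filaments to the cell border, had 214 and 197 in RM+ cells, against 299 and 373 in RM- cells (-0.70, adjusted p = 0.0151, limma). Neither gene overlapped between the groups, but each lost its call without replicate 2 of RM-, *FAM83H* at an adjusted p of 0.204 and *PPL* at 0.121 in limma. *DSP*, which encodes the desmosomal linker desmoplakin, overlapped, with 5009 and 4518 in RM+ cells, against 4126 and 5396 in RM- cells. With the block, *PLEC* and *DSC3*, for plectin and desmocollin 3, passed too (background 9.74%). *PLEC* also passed in DESeq2 (adjusted p = 0.0124, background 2.78%) but not in edgeR (adjusted p = 0.102).

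Of 16 genes of keratin chaperones, modifiers and turnover, 1 rose (background 1.46%) and 1 fell (background 0.794%), with a median log2 fold change of 0.02. *SFN*, which encodes 14-3-3 sigma, of the adaptor family that binds phosphorylated keratin 18, had 2217 and 2426 normalised counts in RM+ cells, against 1674 and 1605 in RM- cells (0.50, adjusted p = 0.0047, limma). *TGM2*, a transglutaminase that cross-links proteins including keratins, had 3136 and 2979 in RM+ cells, against 3787 and 4196 in RM- cells (-0.38, adjusted p = 0.0257, limma). The groups did not overlap in either gene. *TGM2* lost its call in limma without replicate 2 of RM- (log2 fold change -0.31) or of RM+ (-0.35). With the block *SQSTM1*, the autophagy receptor found in keratin aggregates, passed as well (background 9.74%). It also passed in DESeq2 (adjusted p = 0.000107, background 2.78%) but not in edgeR (adjusted p = 0.0892).

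Of 15 tested epithelial transcription factors of keratin genes, 2 rose (background 1.46%) and 0 fell (background 0.794%), with a median log2 fold change of -0.06. *ETS2* had 712 and 716 normalised counts in RM+ cells, against 491 and 428 in RM- cells (0.64, adjusted p = 0.0039, limma), and *ELF3*, an epithelial member of the same ETS family, had 5454 and 4809 against 4213 and 3620.2 (0.39, adjusted p = 0.0392, limma). In both, RM+ samples were above RM- samples. *ELF3* was just outside the threshold in edgeR (adjusted p = 0.0547) and with TMM scaling in limma (0.0537), and lost its call in limma without replicate 1 of RM+ (0.178) or replicate 2 of RM- (0.225). With the block, *CEBPB* (-0.29) and *RARG* (-0.28) passed on the lower side (background 9.74%).

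**Figure D4:**
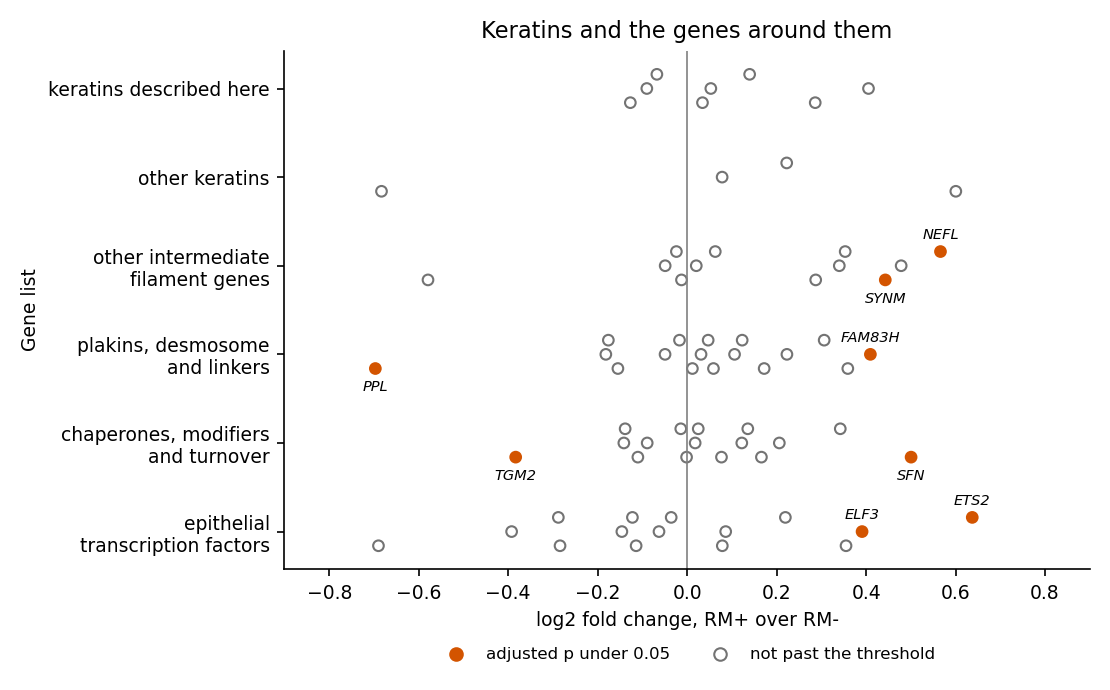
Log2 fold change, RM+ over RM-, of every tested gene in 6 lists, 1 point per gene, filled where the adjusted p from limma was under 0.05. None of the 8 keratins or the 4 other keratins passed (background 2.26%). In the other lists 8 genes did, *NEFL*, *SYNM*, *FAM83H*, *SFN*, *ETS2* and *ELF3* on the higher and *PPL* and *TGM2* on the lower side. The lists differ in size and were chosen with earlier results of these data known.

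The genes whose profiles lay nearest to a keratin were found among 12101 genes with a mean of at least 100 normalised counts, by the Euclidean distance of centred log2 values over the 4 samples. Nearest to *KRT18* were *NPM3* (distance 0.0079), *LCMT1* (0.011) and *TBRG4* (0.011), with log2 fold changes of -0.13, -0.13 and -0.14. Nearest to *KRT19*, the keratin with the smallest p, were *ELOVL4* (0.022), ENSG00000262967 (0.034) and *NPC2* (0.042), of which *NPC2* rose (0.39, adjusted p = 0.0324, limma). With 4 samples and this many genes, close profiles are a description only.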

How the data were processed

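Poly(A) RNA of 4 samples of A549 cells in 2D culture, grouped by the labelled condition, was sequenced. According to the processing notes of the submitters, HISAT2 2.1.0, featureCounts 1.6.3, DESeq2 1.24.0, Trimmomatic 0.38 and FastQC 0.11.7 were used, with GRCh38. For the counting step, the strand setting, the handling of reads that map to several genes and the annotation release were not given in the sources used here. The authors deposited a signal per gene and sample, the count divided by a size factor, and this normalised count was used. The deposited columns of the authors' own comparison (fold changes, statistics and p-values) were not used.

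Each column divided by its smallest value above 0 gave whole numbers for 100% of values within 1e-06. In 2 of the 4 columns the size factor lies so near 1 that this step could be mistaken for rounding, so edgeR and DESeq2 on the recovered reads served as alternatives only.

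Values were tested with limma 3.58.1 (R 4.3.3) on log2(value + 1) after a filter of at least 10 in at least 2 samples, with 2 residual and 14.8 prior degrees of freedom. A call means an adjusted p under 0.05. The alternatives were edgeR 4.0.16 with TMM, DESeq2 1.42.0, other filters and pseudocounts, TMM scaling, each sample left out, and the replicate block, whose prior is infinite, so that its p-values rest on a spread pooled over genes. The pairing comes from the labelled batches. Deviations of same-numbered samples correlated at 0.168 over 17632 genes and 0.314 over 10289 genes with a higher mean. Fits with a sample left out assume that the lone sample varies like the other group. The scripts were tested on simulated data.

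The members and gene lists were chosen with earlier results of these data known. Named are all members, list genes past the test or else the 2 with the highest mean, overlapping genes and pseudogenes, and the 3 nearest profiles of *KRT18* and of the keratin with the smallest p. *KRT5*, *KRT20*, *KRT83*, *VIM*, *DSP*, some marker genes and genes that limma passes with the block but not without it were named after their values were seen. Exon lengths, shared words and the identity of coding sequences come from GENCODE 29. The sequences themselves are not reported here.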

Additional observations from a re-analysis of the deposited data

How the results depend on the processing

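Over 12 alternatives, *KRT8*, *KRT18*, *KRT19*, *KRT80* and *KRT81* kept their direction, and *KRT19* ranged from 0.30 to 0.51 on the log2 scale with adjusted p-values from 0.000206 to 0.496. With a sample left out, the direction turned for *KRT7* (range -0.040 to 0.11, negative without replicate 2 of RM-), *KRT10* (range -0.050 to 0.16, negative without replicate 2 of RM+) and *KRT86* (range -0.14 to 0.0049, positive without replicate 1 of RM-). Keratins called numbered 1 with at least 10 normalised counts in every sample, 2 with the replicate block and 0 to 1 with a sample left out. The block changed no other keratin call, and all 8 calls of the other lists held with it.

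Over all genes, 0 were called without a filter, 1717 with the replicate block and 354 to 622 with a sample left out, in place of 398. By the rule on unadjusted p and fold change there were 883 without a filter, 85 with at least 10 in every sample, 102 with a pseudocount of 5, 88 in DESeq2 and 251 to 315 with a sample left out, in place of 203. TMM scaling moved the median log2 fold change by -0.0047. The log2 difference in the type II to type I ratio was -0.22 without *KRT8* and *KRT18*, in place of 0.19. With 2 samples per group, differences in keratins could be missed, and depth limits *KRT15*. The intervals given are not adjusted for the number of genes. Those of *KRT19* and *KRT80* left out 0, yet neither gene was called in the main fit.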
